A study of Mus musculus with 16 samples.

Results

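The growth hormone and IGF axis was followed through 10 genes, taken by name from a list of its ligand, receptors, binding proteins and feedback inhibitor and found in each of the 16 count tables, out of 24984 genes in all. The study asked what knockdown of *Fos*, a subunit of the transcription factor AP-1, changed in these organs of old mice, kidney and liver. Female wild-type C57BL/6 mice, labelled 24 months of age, received AAV8 vectors through the tail vein, and the organs were collected some months after the injection, when the mice were older than that label. The vector carried either a hairpin against *Fos* (shFOS) or a non-targeting hairpin (shNT), so that the controls had also been given a hairpin vector. RNA-seq of whole kidney and whole liver gave 4 groups of 4 libraries, namely liver shNT, liver shFOS, kidney shNT and kidney shFOS. Which cells had taken up the vector was not measured in these libraries, and the labels do not say whether kidney and liver libraries of the same replicate number came from the same mouse.

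Growth hormone from the pituitary acts on the liver through its receptor *Ghr*, which signals through the kinase JAK2 and the transcription factor STAT5 and switches on *Igf1*, *Igfals* and *Socs2*. Circulating IGF1 is carried by IGF-binding proteins, mostly in a complex of IGF1, an IGF-binding protein and the acid-labile subunit encoded by *Igfals*, and acts on other tissues through its receptor *Igf1r*. *Socs2* feeds back on the growth hormone receptor, and *Igfbp1* is a liver gene that insulin holds down and fasting or stress raises.

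Libraries held 14194543 to 15534665 counted reads in kidney and 16652150 to 18300277 in liver. Levels are given as CPM, read counts scaled to a common library size by TMM normalisation over the 16 libraries, and a count of 0 would have allowed up to 0.138 to 0.277 CPM, for counting error only. *Fos* had a mean of 2.28 CPM in kidney shFOS and 3.80 in kidney shNT (log2 fold change -0.73, SE 0.25, adjusted p = 0.0955). In liver it was 2.57 against 3.54 (-0.47, SE 0.38, adjusted p = 0.778). The targeted mRNA was lower in the mean but called in neither tissue, where the edgeR quasi-likelihood test called 0% of all genes tested. Its unadjusted p in kidney was 0.0178 by that test, where 14.8% of all genes were lower at an unadjusted p under 0.05. In kidney each shFOS library (1.61 to 2.95 CPM) lay below each control (2.99 to 4.73), where 17.2% of all genes did not overlap in either direction. Liver groups overlapped. By RT-qPCR the study reported lower *Fos* in both tissues. The 8 hepatocyte markers summed to 97110 to 276100 CPM in liver and 82.7 to 237.1 in kidney, and the 10 kidney tubule markers to 8605 to 12710 CPM in kidney and 1.85 to 7.98 in liver. One control library of each tissue stood apart, shNT replicate 4. A chi-square of its gene counts against each of the other liver controls, divided by the degrees of freedom, gave 333.7 to 430.7, where the remaining pairs gave 40.7 to 60.2. In kidney the same measure was 63.6 to 67.7 for this library and 7.17 to 13 for the remaining pairs. By this measure liver shFOS replicate 3 also lay away from the rest of its group (55.7 to 72.5, against 19.9 to 25.5 for the remaining pairs), while in kidney its pairs gave 30.6 to 58.5 and overlapped the 22.0 to 32.0 of the remaining pairs. Where leaving out 1 library moved a treatment fold change far, its value or range without single libraries is given as well. The p-values measure the spread between the libraries of a group, which are labelled as replicates, and in whole tissue a smaller number of cells of a type and less RNA per cell cannot be told apart.

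**Figure D1:**
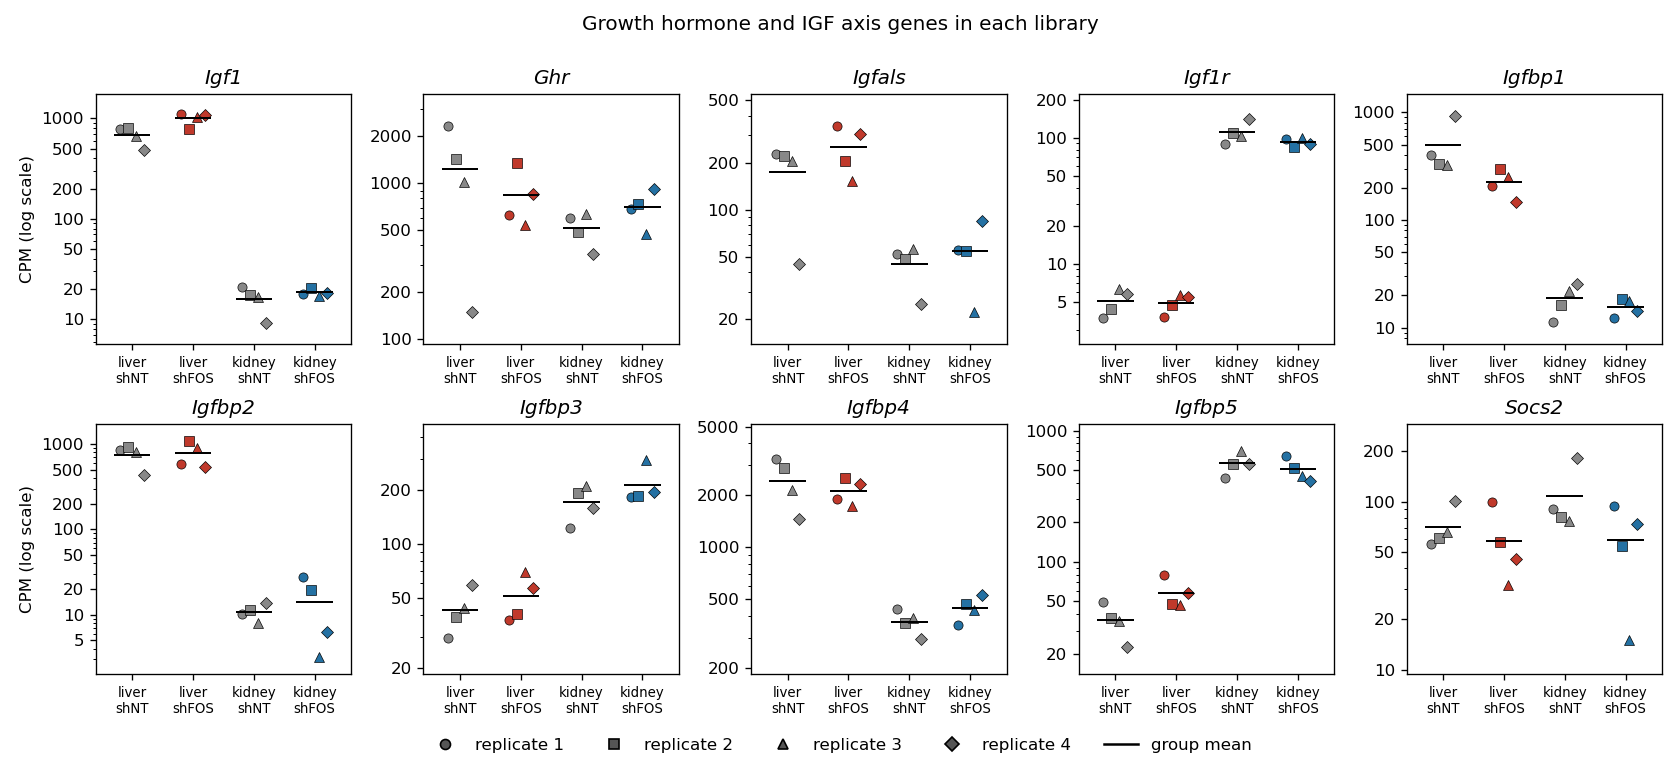
Level of each of the 10 genes in each of the 16 libraries, in CPM on a log axis, with replicates by symbol and the mean of each group of 4 as a line. *Igf1*, *Igfbp1*, *Igfbp2* and *Igfbp4* were higher in every liver library than in any kidney library, *Igf1r*, *Igfbp3* and *Igfbp5* lower, and the liver library shNT replicate 4 lies far from the other controls in *Ghr* (149 CPM) and *Igfals* (45.0 CPM).

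As FOS binds DNA as part of AP-1, the promoters of these genes were searched for its recognition sequence. RefSeq sequences (GRCm38.p6, the mm10 build of the count tables) were at hand for 13 promoters of 9 of the 10 genes, all but *Socs2*. The AP-1 letters TGANTCA, searched on both strands, stood in 3 of the 13 promoters and in 7.81% of 32851 promoters of the same length. The matches, shown in capitals within 30 bases, lay just before inner starts, within the annotated gene, of *Igf1* (chr10:87861063-87861092, + strand), *Ghr* (chr15:3581858-3581887, - strand) and *Igfbp2* (chr1:72825337-72825366, + strand). These windows are shown because they carry the letters that FOS-containing dimers bind.
Igf1: gagctggaactTGAATCActattctggata
Ghr: tgttggcttccTGAATCAgggtgttgagtg
Igfbp2: gaaacaaaactTGAGTCAgtgaccaccggt
The first base of the match lay at -37, -34 and -39 from the start in *Igf1*, *Ghr* and *Igfbp2*, respectively. The cyclic AMP response element TGACGTCA, which AP-1 dimers with ATF proteins can bind, was in 0 of the 13 promoters and in 1.79% of all. A match is a description of letters in this window. None of the 3 genes was called between shFOS and shNT with edgeR, which called 0% of all genes tested in either tissue. A link of these letters to the levels was not tested.

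Liver and kidney held different parts of the axis. Of the 10 genes, 8 differed between liver and kidney in shNT mice, where 64.7% of the 15421 genes tested were called (edgeR quasi-likelihood test, adjusted p under 0.05), and 8 differed in shFOS mice, where 65.9% were called. *Igf1*, *Igfals*, *Igfbp1*, *Igfbp2* and *Igfbp4* were higher in liver (5 genes, against 30.2% of all genes in shNT mice and 30.3% in shFOS mice), and *Igf1r*, *Igfbp3* and *Igfbp5* were lower (3 genes, against 34.4% and 35.6%). *Ghr* and *Socs2* were called in neither treatment. Libraries of the tissues did not overlap in 7 of the 10 genes in shNT mice, against 56.2% of all genes, and in 8 of the 10 in shFOS mice, against 63.5%. These shares of members lie near the background, and what the comparison gives is which genes lay on which side. Tissue differences depend on how 2 tissues of unlike composition are scaled. The TMM factors were 0.626 to 0.783 in liver and 1.32 to 1.48 in kidney, and scaling by library size alone, an alternative chosen after seeing the data, moved the median log2 difference of all genes from -0.05 to -1.10 in shNT mice and to -1.0 in shFOS mice.

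*Igf1* encodes the hormone through which growth hormone drives body growth. Liver shNT libraries held 778, 798, 671 and 489 CPM in replicates 1 to 4, and liver shFOS libraries 1098, 792, 1026 and 1072 CPM. In kidney, the levels were 20.9, 17.6, 16.8 and 9.11 CPM in shNT and 17.9, 20.6, 17.1 and 18.4 CPM in shFOS. Each liver library thus lay above each kidney library, and within liver, shFOS replicates 1, 3 and 4 lay above all controls while replicate 2 lay among them. The mean of liver was 42.5-fold that of kidney in shNT mice (log2 difference 5.41, SE 0.26, adjusted p = 4.92e-11) and 53.9-fold in shFOS mice (5.75, SE 0.27, adjusted p = 2.96e-11). Between shFOS and shNT, liver *Igf1* had a mean of 997 ± 140 CPM (SD, n = 4) against 684 ± 141, a log2 fold change of 0.53 (SE 0.20) that was not called (adjusted p = 0.715). Without shNT replicate 4 it was 0.39 (adjusted p = 0.739). In kidney the log2 fold change of *Igf1* was 0.20 (SE 0.22, adjusted p = 0.558), 0.0023 without shNT replicate 4 and 0.35 without shNT replicate 1.

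*Ghr*, the receptor through which the liver senses growth hormone, spread over the widest range of the 10 genes in the liver controls. Liver shNT libraries held 2351, 1439, 1025 and 149 CPM, a 15.8-fold range, and liver shFOS libraries 631, 1346, 544 and 850.1 CPM. The kidney libraries held 597, 488, 637 and 351 CPM in shNT and 686, 739, 473 and 923 CPM in shFOS. Groups overlapped in both tissues, and shNT replicate 4 was the lowest of the 8 libraries in each of them. The log2 fold change between shFOS and shNT was -0.58 in liver (SE 0.66, adjusted p = 0.838) and 0.45 in kidney (SE 0.24, adjusted p = 0.230). In liver it was -0.95 without shNT replicate 4, -0.89 without shFOS replicate 2, -0.07 without shNT replicate 1 and -0.21 with the replicate number as a block, so that single libraries moved it either way. In kidney it was 0.29 without shNT replicate 4 and 0.28 without shFOS replicate 4. The tissue difference of *Ghr* was 1.26 in shNT mice (SE 0.54, adjusted p = 0.0515) and 0.26 in shFOS mice (SE 0.53, adjusted p = 0.686). It passed the threshold in shNT mice without liver shNT replicate 4 (1.63, adjusted p = 0.00063) and with DESeq2 (1.27, adjusted p = 0.0223, where DESeq2 called 66.4% of genes). It was 0.75 (adjusted p = 0.230) without liver shNT replicate 1 and 0.80 (adjusted p = 0.153) with a block that paired the tissues by number within treatment, and in shFOS mice its direction turned under library size alone (-0.68).

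*Igf1r*, the receptor that binds IGF1 on target cells, was much higher in kidney than in liver. Kidney libraries held 89.0, 109.8, 103.0 and 139.5 CPM in shNT and 98.0, 84.8, 99.7 and 89.9 CPM in shFOS, against 3.69, 4.40, 6.29 and 5.70 CPM in liver shNT and 3.75, 4.66, 5.59 and 5.48 CPM in liver shFOS. The kidney mean was 22.0-fold the liver mean in shNT mice (log2 difference of liver against kidney -4.45, SE 0.19, adjusted p = 9.43e-12) and 19.1-fold in shFOS mice (-4.26, SE 0.19, adjusted p = 1.56e-11). The liver values rest on 40 to 86 reads per library. Treatment groups overlapped in both tissues, with log2 fold changes of -0.24 in kidney (SE 0.13, adjusted p = 0.244) and -0.06 in liver (SE 0.23, adjusted p = 0.963). The kidney value was -0.12 without shNT replicate 4, and the liver value ran from -0.18 to 0.07 with single libraries left out. *Igf1* mRNA was thus higher in liver and the mRNA of its receptor higher in kidney.

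*Igfals* encodes the acid-labile subunit, which the liver secretes under growth hormone and which holds IGF1 in the circulation. Liver shNT libraries held 227, 222, 204 and 45.0 CPM and liver shFOS libraries 344, 205.0, 153 and 307 CPM. In kidney the levels were 51.9, 48.3, 56.5 and 24.9 CPM in shNT and 55.3, 54.6, 22.3 and 84.5 CPM in shFOS. Liver shNT replicate 4 held less *Igfals* than 3 of the 4 kidney shNT libraries had, while the other liver libraries lay above all kidney libraries. The liver mean was 3.85-fold the kidney mean in shNT mice (log2 difference 1.94, SE 0.47, adjusted p = 0.00192) and 4.66-fold in shFOS mice (2.22, SE 0.48, adjusted p = 0.000696). In shNT mice it missed the threshold under library size alone (0.88, adjusted p = 0.0817). Between shFOS and shNT the log2 fold change was 0.52 in liver (SE 0.47, adjusted p = 0.799), 0.18 without shNT replicate 4 and 0.33 without shFOS replicate 1. In kidney it was 0.25 (SE 0.38, adjusted p = 0.672), 0.05 without shNT replicate 4 and 0.51 without shFOS replicate 3, and the direction turned without shFOS replicate 4 (-0.06).
One *Igfals* promoter held matches to both a STAT5 and a forkhead sequence, and is shown for the link of this gene to growth hormone signalling. The window lies at chr17:24877981-24878214 (+ strand), with TGTTTAC, the reverse complement of the forkhead letters GTAAACA, at -242 and the STAT5 letters TTCNNNGAA at -58 from the start in capitals.
Igfals: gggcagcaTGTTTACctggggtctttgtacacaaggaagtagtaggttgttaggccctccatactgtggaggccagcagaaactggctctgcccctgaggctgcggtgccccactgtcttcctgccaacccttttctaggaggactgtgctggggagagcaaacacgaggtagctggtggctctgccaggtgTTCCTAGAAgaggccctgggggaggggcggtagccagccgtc
The STAT5 letters were in 2 of the 13 promoters, both of *Igfals*, and in 8.30% of all promoters, and the forkhead letters in 1 of the 13 and in 3.65% of all.

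*Igfbp1*, the binding protein that insulin represses in liver, had the smallest p of the 10 genes between shFOS and shNT livers. Liver shNT libraries held 401, 334, 323 and 928 CPM and liver shFOS libraries 205, 295, 248 and 148 CPM. Each shFOS liver lay below each shNT liver, as in 1 of the 10 genes, against 1.33% of the 13144 genes tested that lay lower without overlap and 4.56% in either direction. The mean was 224 ± 62.9 CPM (SD, n = 4) in shFOS against 496 ± 290 in shNT. The log2 fold change was -1.15 (SE 0.37) with an unadjusted p of 0.0128 and an adjusted p of 0.714, so that *Igfbp1* was not called. It was -0.68 (adjusted p = 0.689) without shNT replicate 4, which held 2.63-fold the mean of the other controls. In kidney, the levels were 11.3, 16.2, 21.9 and 25.3 CPM in shNT and 12.2, 18.5, 17.9 and 14.2 CPM in shFOS, overlapping (log2 fold change -0.24, SE 0.24, adjusted p = 0.515, -0.07 without shNT replicate 4 and -0.42 without shNT replicate 1). The liver mean was 26.6-fold the kidney mean in shNT mice (log2 difference 4.73, SE 0.39, adjusted p = 3.11e-08) and 14.3-fold in shFOS mice (3.84, SE 0.37, adjusted p = 2.23e-07).
The promoter of *Igfbp1* is shown because the gene is known as a target of FOXO factors, which insulin keeps out of the nucleus. The window lies at chr11:7197537-7197781 (+ strand), and the capitals mark CAAAACA, the core of the FOXO response element, with its first base at -108.
Igfbp1: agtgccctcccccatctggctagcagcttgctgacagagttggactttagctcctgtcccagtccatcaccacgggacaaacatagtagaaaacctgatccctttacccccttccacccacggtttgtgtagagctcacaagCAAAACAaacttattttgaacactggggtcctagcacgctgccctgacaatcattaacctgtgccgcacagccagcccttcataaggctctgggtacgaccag
These letters stood in 1 of the 13 promoters and in 6.28% of all promoters. AP-1 letters were not in this window.

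The ratio of *Igf1* to *Igfbp1* CPM in the same liver, looked at after both had been seen, was 1.94, 2.39, 2.08 and 0.527 in shNT replicates 1 to 4 and 5.35, 2.68, 4.13 and 7.26 in shFOS replicates 1 to 4. The highest control lay below the lowest shFOS liver, and the ratio is a description without a test.

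*Igfbp2*, a binding protein that the adult liver secretes, had the largest fold between the tissues of the 10 genes. Liver libraries held 851, 920.0, 802 and 433 CPM in shNT and 579, 1082, 912 and 540.1 CPM in shFOS. Kidney libraries held 10.2, 11.3, 8.06 and 13.8 CPM in shNT and 27.9, 19.5, 3.22 and 6.22 CPM in shFOS. The kidney shFOS libraries spread from 3.22 to 27.9 CPM and enclosed all kidney controls. Liver stood 69.3-fold above kidney in shNT mice (log2 difference 6.11, SE 0.60, adjusted p = 2.50e-07) and 54.8-fold in shFOS mice (5.77, SE 0.59, adjusted p = 3.87e-07). The treatment log2 fold changes of 0.04 in liver (SE 0.30, adjusted p = 0.981) and 0.38 in kidney (SE 0.56, adjusted p = 0.662) turned negative when single libraries were left out, for example to -0.16 in liver without shNT replicate 4 and to -0.20 in kidney without shFOS replicate 1.

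*Igfbp3*, the main carrier of IGF1 in blood, was on the kidney side. Kidney libraries held 123, 193, 212 and 158 CPM in shNT and 183, 186, 295 and 197 CPM in shFOS, and liver libraries 29.7, 38.7, 43.4 and 58.8 CPM in shNT and 37.5, 40.6, 69.3 and 56.3 CPM in shFOS. No liver library reached the lowest kidney library. The kidney mean was 4.02-fold the liver mean in shNT mice (log2 difference of liver against kidney -2.01, SE 0.25, adjusted p = 3.75e-06) and 4.23-fold in shFOS mice (-2.08, SE 0.25, adjusted p = 2.49e-06). Treatment groups overlapped in both tissues, with log2 fold changes of 0.34 in kidney (SE 0.22, adjusted p = 0.311) and 0.25 in liver (SE 0.25, adjusted p = 0.818). The kidney value was 0.13 without shFOS replicate 3 and 0.21 without shNT replicate 1, and the liver value 0.42 without shNT replicate 4, 0.10 without shNT replicate 1 and 0.05 without shFOS replicate 3.

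*Igfbp4*, a binding protein that restrains IGF action until proteases of the pappalysin family cleave it, was high in both tissues. Liver libraries held 3240, 2877, 2155 and 1454 CPM in shNT and 1899, 2523, 1725 and 2336 CPM in shFOS, and kidney libraries 437, 363, 389 and 295 CPM in shNT and 355, 471, 432 and 527 CPM in shFOS. The groups of a tissue overlapped, and shNT replicate 4 was again the lowest library in both tissues. Liver stood 6.55-fold above kidney in shNT mice (log2 difference 2.71, SE 0.25, adjusted p = 1.26e-07) and 4.75-fold in shFOS mice (2.25, SE 0.25, adjusted p = 8.76e-07). The log2 fold change between shFOS and shNT was -0.21 in liver (SE 0.27, adjusted p = 0.853) and 0.27 in kidney (SE 0.17, adjusted p = 0.288). In liver it was -0.40 without shNT replicate 4 and -0.05 without shNT replicate 1, and in kidney 0.17 without shNT replicate 4 and again 0.17 without shFOS replicate 4.

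*Igfbp5*, a binding protein that also sticks to the extracellular matrix, was higher in kidney, and in liver was among the 3 genes with a small unadjusted p between shFOS and shNT. Kidney libraries held 434, 561, 703 and 559 CPM in shNT and 640.4, 523, 453 and 415 CPM in shFOS, and liver libraries 49.7, 37.4, 35.3 and 22.4 CPM in shNT and 78.9, 47.4, 46.8 and 58.4 CPM in shFOS. Liver shFOS replicates 1 and 4 lay above all controls, and replicates 2 and 3 lay just under the highest control. The kidney mean was 15.6-fold the liver mean in shNT mice (log2 difference of liver against kidney -3.96, SE 0.26, adjusted p = 2.19e-09) and 8.78-fold in shFOS mice (-3.13, SE 0.25, adjusted p = 2.12e-08). In liver the mean was 57.9 ± 15 CPM (SD, n = 4) in shFOS against 36.2 ± 11.2 in shNT, a log2 fold change of 0.66 (SE 0.25) that was not called (adjusted p = 0.715). It was 0.48 without shNT replicate 4. In kidney it was -0.15 (SE 0.18, adjusted p = 0.583), from -0.31 without shFOS replicate 1 to -0.03 without shNT replicate 3. Of the 8 markers of stellate cells, fibroblasts and pericytes, 7 were higher in the mean in shFOS livers (median log2 fold change 0.49). Their summed level was 346 to 518 CPM in shNT livers and 519 to 670.2 in shFOS livers with none of the 8 at 0 throughout, and their part in the *Igfbp5* values was not tested.

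*Socs2*, the feedback inhibitor of the growth hormone receptor, was not called between the tissues, with a mean of 70.9 CPM in liver and 107.5 in kidney in shNT mice. Kidney libraries held 90.6, 81.0, 76.6 and 182 CPM in shNT and 94.6, 54.5, 15 and 73.5 CPM in shFOS. Liver libraries held 55.7, 60.5, 66.3 and 101 CPM in shNT and 99.4, 57.6, 31.8 and 45.7 CPM in shFOS. In both tissues shNT replicate 4 was the highest library and shFOS replicate 3 the lowest, and shFOS replicate 1, in liver also replicate 2, lay within the range of the controls. The log2 fold change was -0.85 in kidney (SE 0.49, adjusted p = 0.260), -0.49 without shNT replicate 4 and -0.53 without shFOS replicate 3, and -0.29 in liver (SE 0.33, adjusted p = 0.841), -0.08 without shNT replicate 4, -0.09 without shFOS replicate 3 and -0.67 without shFOS replicate 1. Liver against kidney gave -0.60 in shNT mice (SE 0.46, adjusted p = 0.263), -0.23 without kidney shNT replicate 4, and -0.02 in shFOS mice (SE 0.46, adjusted p = 0.976). The shNT difference passed the threshold under library size alone (-1.63, adjusted p = 0.0048), and the direction in shFOS mice turned when single libraries were left out (up to 0.26).

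**Figure D2:**
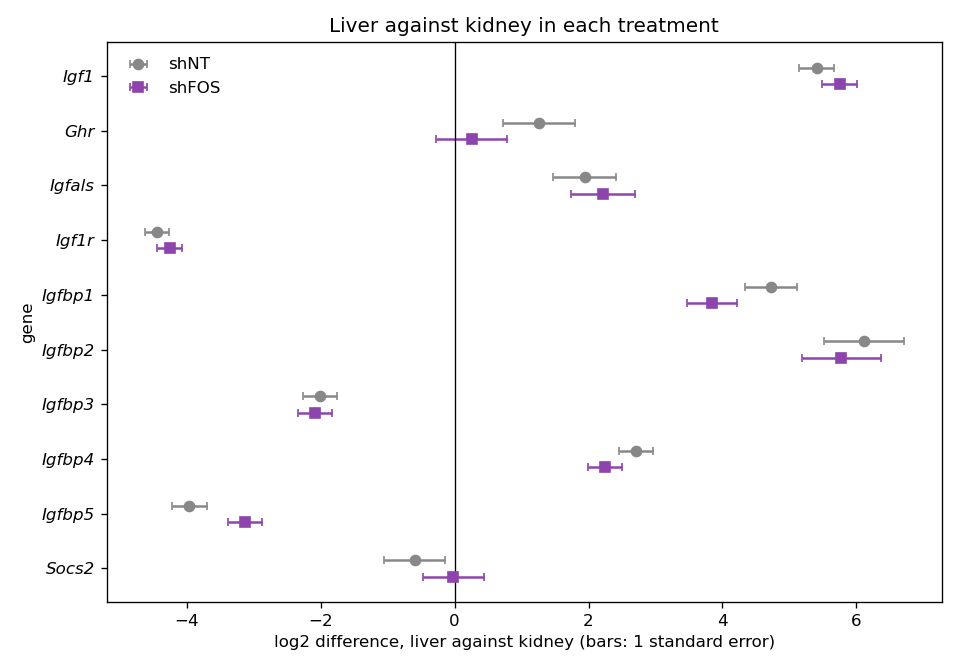
Log2 difference of liver against kidney for each gene, in shNT and in shFOS mice, as points with bars of 1 standard error from the fit of all 16 libraries. The largest values are 6.11 for *Igfbp2* and 5.75 for *Igf1* on the liver side and -4.45 for *Igf1r* on the kidney side, with *Socs2* at -0.60 in shNT and -0.02 in shFOS and *Ghr* at 1.26 in shNT and 0.26 in shFOS.

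Levels of different genes were set side by side as TPM, a scale on which counts are divided by gene length. In shNT livers *Igfbp4* led with 960.1 ± 241 TPM (SD, n = 4), followed by *Igfbp2* with 718 ± 203 and *Igfbp1* with 584 ± 365, which overlapped from each to the next. *Ghr* (233 ± 153 TPM), *Igf1* (122 ± 21.6) and *Igfals* (96.7 ± 47.6) followed, also overlapping. *Igfbp3*, *Socs2* and *Igfbp5* lay between 24.7 and 10.5 TPM, and *Igf1r* was set apart at 0.543 ± 0.186. In shNT kidneys *Igfbp5* (411 ± 81.3 TPM), *Igfbp4* (369 ± 65.4), *Ghr* (251 ± 66.3) and *Igfbp3* (240 ± 55.3) overlapped in a row, well above *Igfals* (62.9 ± 20.3). *Igf1* came last with 7.13 ± 2.29 TPM, below the next gene without overlap. With the longest transcript as the length, *Ghr* came first in kidney (419 TPM), so that the order at the top depends on the length used.

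The binding proteins together made up 2422 ± 101 TPM in shNT livers and 4598 ± 613 TPM in shNT kidneys when *Igfbp6* and *Igfbp7* were counted with the 5 genes above. Liver had 39.5% ± 9.41 *Igfbp4*, 29.5% ± 7.42 *Igfbp2* and 24.5% ± 16.2 *Igfbp1* in shNT mice (SD, n = 4). In shFOS livers the share of *Igfbp1* was 12.3% ± 2.08, ranging from 9.25% to 13.6%, below the 15% to 48.8% of the controls. Control shNT replicate 4 raised the control mean, with 1130 TPM of *Igfbp1* against 376 to 427 in the other controls. The share draws on the same *Igfbp1* levels as above and is a description without a test. Kidney was dominated by *Igfbp7*, an IGFBP-related protein of vessel walls with low affinity for IGF1, with 75.4% ± 2.02 in shNT and 77.8% ± 2.12 in shFOS. Next in kidney were *Igfbp5* (8.96% ± 1.43 in shNT), *Igfbp4* (8.05% ± 1.30) and *Igfbp3* (5.19% ± 0.837).

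**Figure D3:**
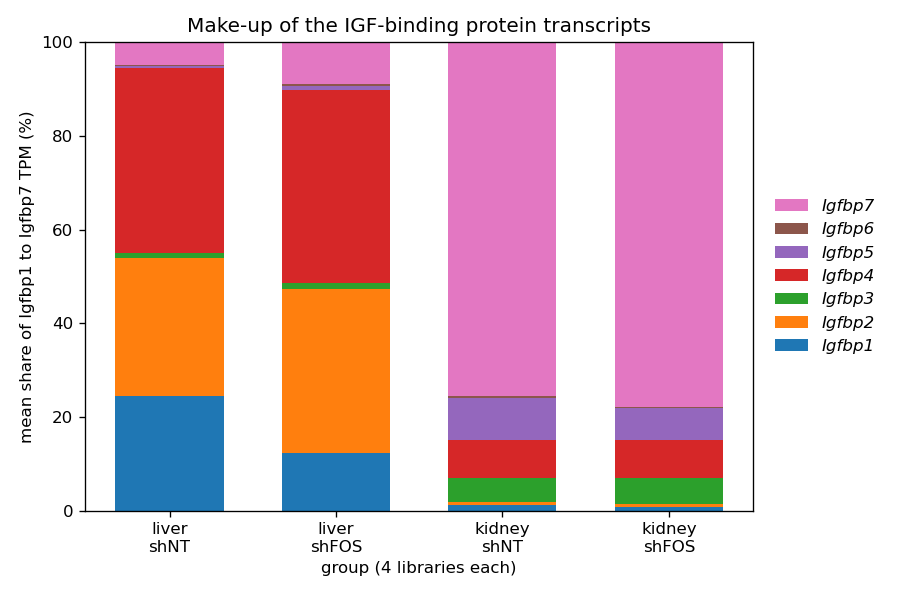
Mean share of each binding protein in the summed TPM of *Igfbp1* to *Igfbp7*, in percent, for the 4 groups of 4 libraries. *Igfbp1*, *Igfbp2* and *Igfbp4* fill most of the liver bars and *Igfbp7* fills 75.4% and 77.8% of the kidney bars. The *Igfbp1* share is 24.5% in liver shNT, a mean raised by shNT replicate 4, and 12.3% in liver shFOS.

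The neighbouring binding protein genes were split between the tissues. *Igfbp1* (chr11:7197782-7202546, + strand) and *Igfbp3* (chr11:7206086-7213923, - strand) end 3539 bases apart and point towards each other. *Igfbp2* (chr1:72824503-72852474, + strand) and *Igfbp5* (chr1:72857932-72874884, - strand) lie likewise, 5457 bases apart. In each pair the gene on the + strand was the one called higher in liver and the gene on the - strand the one called higher in kidney, in both treatments. Counting was unstranded, but no exon of another gene overlapped an exon of these genes in GENCODE M21.

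None of the 10 genes was called between shFOS and shNT in kidney with edgeR or with DESeq2, where edgeR called 0% of 14892 genes and DESeq2 20.4% of 13409 genes with an adjusted p. At an unadjusted p under 0.05 there were 0 of the 10 genes against 31.9% of all genes tested, and groups failed to overlap in 0 of the 10 against 17.2%. The adjusted p of the 10 genes ran from 0.230 (*Ghr*) to 0.672 (*Igfals*), with standard errors of 0.131 to 0.557 on the log2 scale. Of the 5 podocyte markers, 5 were higher in shFOS kidneys at an unadjusted p under 0.05 (17.1% of all genes), with sums of 240 to 348 CPM in shNT and 307 to 601 in shFOS and none at 0. Of the 7 endothelial markers tested, 5 were higher by the same measure, with sums over the 8 markers of 374 to 449 CPM in shNT and 403 to 540 in shFOS. The 10 tubule markers summed to 8605 to 10970 CPM in shNT and 11040 to 12710 in shFOS, without overlap, with 2 of them higher and 1 lower by that measure. The part of these markers in the kidney values was not tested. In liver, 0 of the 10 genes were called with edgeR or with DESeq2, where edgeR called 0% of 13144 genes and DESeq2 0.315% of 12075. There, 3 of the 10 had an unadjusted p under 0.05, against 6.74% of all genes tested, with *Igfbp1* lower (3.16% of all genes) and *Igf1* and *Igfbp5* higher in shFOS (3.58% of all genes). The 8 macrophage and Kupffer cell markers, none at 0, were all lower in the mean in shFOS livers (median log2 fold change -0.68, none called), with sums of 380 to 2031 CPM in shNT and 514 to 955 in shFOS that overlapped, and their part in the liver values was not tested. The adjusted p of the 10 genes in liver ran from 0.714 to 0.981. These tests do not show that the levels were alike, since a standard error of 0.664 for liver *Ghr* leaves room for large differences.

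**Figure D4:**
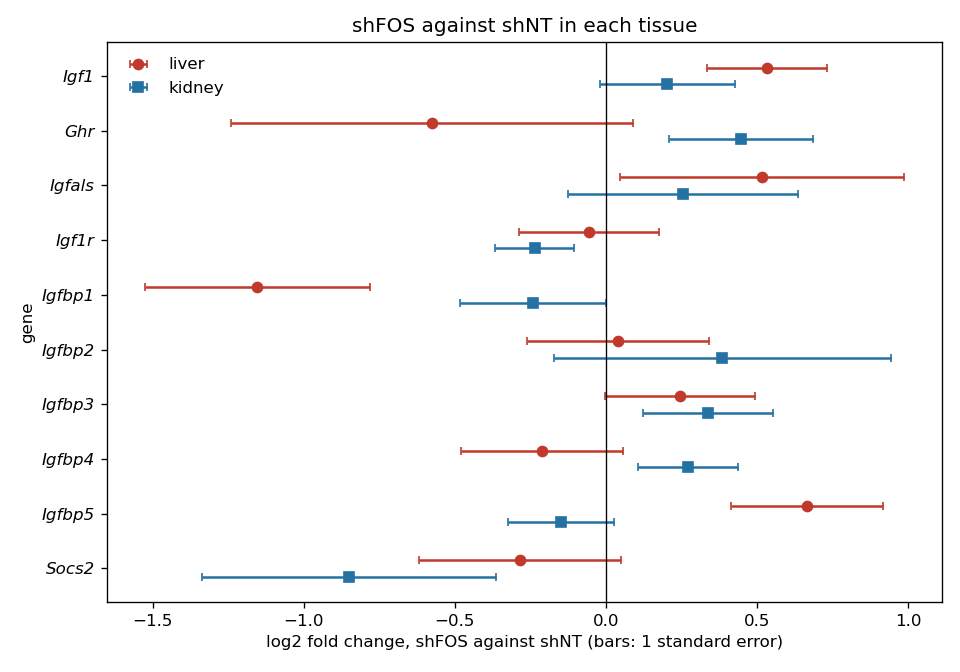
Log2 fold change of shFOS against shNT for each gene in liver and kidney, as points with bars of 1 standard error from the fit of each tissue. *Igfbp1* in liver lies farthest from 0 at -1.15, liver *Igfbp5* is at 0.66 and liver *Igf1* at 0.53, and none was called.

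Whether the response to shFOS differed between tissues was tested as an interaction in the fit of all 16 libraries. Of the 10 genes, 0 were called with edgeR or with DESeq2, where edgeR called 0% of 15421 genes and DESeq2 2.96% of 11510, and 1 of the 10 had an unadjusted p under 0.05 against 16.1% of all genes. That gene was *Igfbp5*, with a liver response 0.83 above the kidney response on the log2 scale (SE 0.33, unadjusted p = 0.0240, adjusted p = 0.248). *Igfbp1* had -0.89 (SE 0.48, adjusted p = 0.364) and *Ghr* -1.0 (SE 0.75, adjusted p = 0.540). Without liver shNT replicate 4 *Igfbp1* was at -0.40 and *Ghr* at -1.38, and *Ghr* was at -0.50 without liver shNT replicate 1. *Igfbp5* stayed between 0.64 and 1.02 under all alternatives run. The adjusted p of the other 7 genes ran from 0.525 (*Igfbp4*) to 0.944 (*Igfbp3*). All 7 moved by a large part of their size with single libraries left out, such as *Socs2* from 0.58 to 0.17 without kidney shNT replicate 4, and 3 of them turned direction.

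Other binding proteins and IGFBP-cleaving proteases numbered 10. The 4 of them that passed the low-count filter in liver were also not called, where edgeR called 0% of all genes tested. *Igfbp6*, which prefers IGF2, held 1.39, 1.79, 1.68 and 2.17 CPM in shNT livers and 3.11, 3.24, 4.44 and 3.77 CPM in shFOS livers (log2 fold change 1.03, SE 0.24, adjusted p = 0.712). *Igfbp7* held 72.2, 87.0, 107.1 and 60.6 CPM in shNT livers and 112, 130.0, 143 and 119 CPM in shFOS livers (0.61, SE 0.18, adjusted p = 0.714). For both genes, each shFOS liver lay above each control, against 3.23% of all genes tested that lay higher without overlap. *Htra1*, a protease that cleaves binding proteins, had a log2 fold change of 0.84 in liver (SE 0.34, adjusted p = 0.731) and 0.74 in kidney (SE 0.23, adjusted p = 0.0822).

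*Igf2*, the second ligand, was at a mean of 262 CPM in shNT kidneys and 1.11 CPM in shNT livers (log2 difference of liver against kidney -7.87, SE 0.70, adjusted p = 7.66e-08). Its kidney levels were 312, 352, 269 and 116 CPM in shNT and 287, 321, 32.4 and 317 CPM in shFOS, with shFOS replicate 3 far below the others. Of the 8 other ligands and receptors, 5 were tested in kidney and 4 in liver. None was called between shFOS and shNT, where edgeR called 0% of all genes tested in either tissue. *Igf2r*, the receptor that clears IGF2, had the smallest p among them in kidney (0.33, SE 0.09, adjusted p = 0.0692).

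Signalling genes downstream of the 2 receptors were not called either, where edgeR called 0% of all genes tested in each tissue. The smallest adjusted p of any gene tested was 0.0660 in kidney and 0.712 in liver. Of 15 genes of growth hormone receptor signalling tested in kidney, 2 were higher and 4 lower at an unadjusted p under 0.05, against 17.1% and 14.8% of all genes tested (median log2 fold change -0.08, against 0.0023 over all genes). Among them were *Ptpn11*, with the smallest p (0.42, SE 0.11, adjusted p = 0.0660), *Jak2*, the receptor's kinase (0.36, SE 0.11, adjusted p = 0.0789), and *Socs3*, an inhibitor of cytokine receptors (-0.87, SE 0.28, adjusted p = 0.0821). Of 16 tested in liver, 0 were higher and 2 lower, against 3.58% and 3.16% of all genes (median -0.17, against -0.01 over all genes), namely *Ptpn1* and *Socs3*. Liver *Socs3* had a log2 fold change of -2.55 (SE 0.95, adjusted p = 0.715), but shNT replicate 4 held 204 CPM against 12.3 to 17.0 in the other controls and 8.22 to 12.2 in shFOS. In kidney, shNT replicate 4 likewise held 29.56 CPM of *Socs3*, against 12.25 to 14.23 in the other controls and a mean of 9.44 in shFOS. Of 27 genes of IGF1 receptor signalling, 6 were higher and 2 lower in kidney (median 0.04), led by *Pik3cb* (0.58, SE 0.10, adjusted p = 0.0660) and *Irs1*, the adaptor of the receptor (-0.55, SE 0.14, adjusted p = 0.0660), and 0 were higher and 1 lower in liver (median -0.03), namely *Eif4ebp1*. FOXO and fasting-responsive genes gave 2 higher of 10 in kidney, *G6pc* (1.36, SE 0.35, adjusted p = 0.0660) and *Sesn3*, and 1 higher of 11 in liver, *Pdk4* (0.76, SE 0.25, adjusted p = 0.714). In liver the pulse pattern of growth hormone is known to set sex-biased genes. At an unadjusted p under 0.05, against 3.58% of all genes higher, the female-biased list held 1 higher gene of 16 in shFOS livers, *Cyp2b13* (adjusted p = 0.731), and the male-biased list 2 of 13, *Nudt7* and *Elovl3* (adjusted p = 0.714 for both), with none lower in either list. Treatment groups overlapped for each of these genes. *Cyp2b13* had 65.1 ± 100 CPM (SD, n = 4) in shFOS against 9.27 ± 4.70 in shNT, and *Elovl3* only 3.24 ± 2.51 against 0.547 ± 0.557.

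The library shNT replicate 4 was extreme over many genes, those of the axis among them. In liver it was the lowest or highest of the 8 libraries for 8 of the 10 genes, against 52.6% of all genes tested, and in kidney for 6 of the 10, against 51.3%, a share near that of all genes. Relative to the mean of the other 3 controls, liver *Ghr* was at 0.0930, *Igfals* at 0.207, *Igf1* at 0.653 and *Igfbp1* at 2.63 of it. In kidney *Ghr* was at 0.611, *Igfals* at 0.476, *Igf1* at 0.495 and *Socs2* at 2.2. *Igf1*, *Ghr*, *Igfals* and *Igfbp4* were thus below and *Igfbp1* and *Socs2* above the range of the other controls in both tissues. In the same library liver *Alb* was at 38720 CPM against 146400 to 238000 in the other controls, and liver *Fgb*, an acute-phase gene, at 33310 against 7482 to 10250, 2 hepatocyte markers named after their values were seen, and their link to the axis was not tested.

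**Figure D5:**
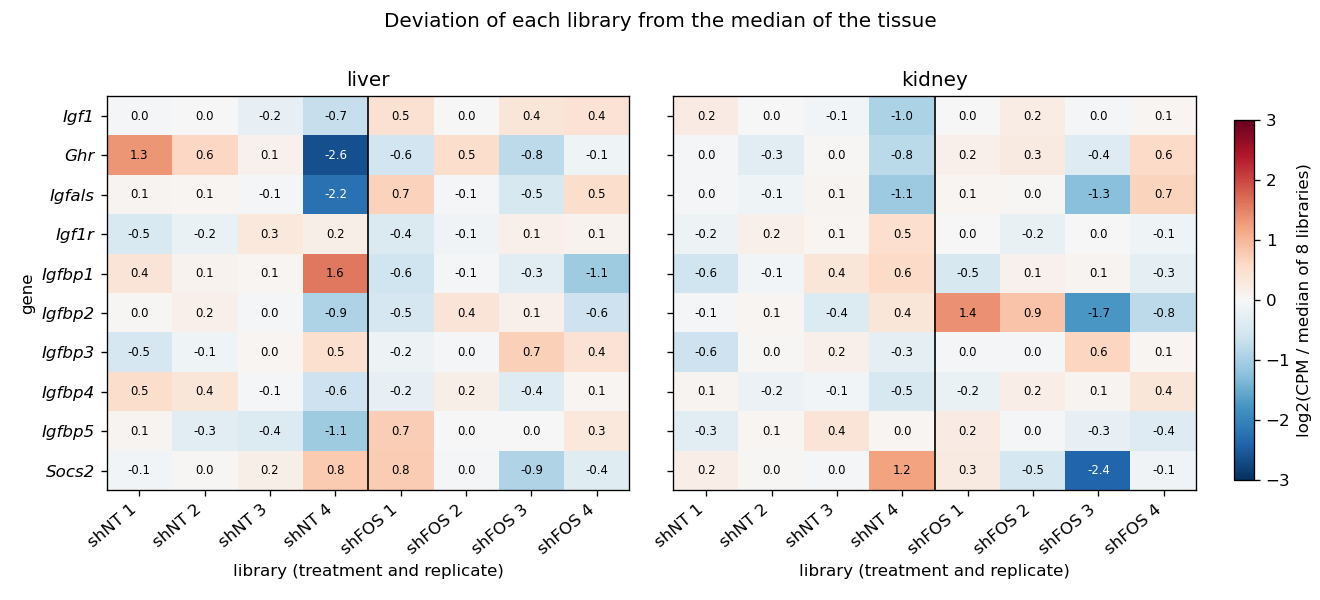
Deviation of each library from the median of the 8 libraries of its tissue, as log2 of the CPM ratio, for the 10 genes in liver and kidney, with shNT left of the line and shFOS right. In shNT replicate 4 the squares for *Ghr*, *Igfals* and *Igf1* are low and those for *Igfbp1* and *Socs2* high in both tissues. In shFOS replicate 3 the *Socs2* square is the lowest of the *Socs2* row in each tissue.

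For 9 of the 10 genes, the one gene of 15421 whose deviations from the group means followed it most closely over the 16 libraries was looked up. These correlations are descriptions, since the libraries share depth, composition and the 2 that stood apart. Pearson's r was 0.975 for *Ghr* with *Sugct*, 0.954 for *Igfbp4* with *Parva*, 0.940 for *Igfals* with *Rnpepl1*, 0.926 for *Igf1* with *Tysnd1* and 0.914 for *Igfbp1* with *Rps10*. It was 0.886 for *Igfbp5* with *Sowaha*, 0.853 for *Igf1r* with *Lsm11* and 0.835 for *Igfbp3* with *Card10*. *Socs2* was closest to 5730420D15Rik (0.895), a non-coding RNA gene that lies 194 bases from *Socs2* on chromosome 10 and is transcribed away from it (95417375 to 95428640, + strand). Its levels in kidney were 2.55, 2.68, 3.45 and 5.70 CPM in shNT and 3.55, 1.67, 0.594 and 4.13 CPM in shFOS, on 12 to 122 reads. As with *Socs2*, shNT replicate 4 was the highest and shFOS replicate 3 the lowest of the kidney libraries. Because strand was not used in counting, reads from one gene that run past its annotated start could have been counted for the other.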

How the data were processed

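RNA-seq libraries of kidney and liver were analysed, 16 in all and 4 per tissue and treatment. The authors trimmed reads with Trimmomatic 0.39, aligned them to mm10 with HISAT2 2.2.1 and deposited raw read counts per gene from HTSeq 0.12.4, made without regard to strand. Tool names and versions are those of the submitters' processing notes and the study's methods. Between 13.4% and 26.7% of reads per library fell outside genes and stayed out of library sizes. GENCODE M21 held 98.2% of the 24984 symbols and gave positions and lengths.

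In R 4.3.3, each tissue was fitted alone with edgeR 4.0.16 (filterByExpr, TMM, robust quasi-likelihood test), with Benjamini-Hochberg adjustment over all genes tested and calls at an adjusted p under 0.05. Tissue differences and the interaction came from a fit of all 16 libraries, with 1 mean per tissue and treatment. Every adjusted p is from these fits unless DESeq2 1.42.0 is named. The SE is the log2 fold change divided by the square root of F. TPM used the union of exons, or the longest transcript as an alternative. The replicate numbers were checked for pairing by correlating deviations from the group means. Kidney and liver libraries of the same number correlated at 0.115 to 0.326 in shNT. Kidney shNT replicate 1 correlated better with liver shNT replicate 3 (0.1365) than with liver shNT replicate 1 (0.1154). As all same-number values in shNT were over 0.1, a cut with no outside basis, the numbers were taken to pair the tissues there. They were not in shFOS (0.0387 to 0.148) or between shNT and shFOS (-0.238 to 0.113). Yet shFOS kidney replicates 1, 2 and 4 also correlated best with their own number in liver (0.0792, 0.1475 and 0.1067). Replicate 3 did not (0.0387, against 0.0659 with liver replicate 2). Pairing was thus not settled in either treatment, and the main fits did not use it. No label says what a number marks. The script was tested on simulated data. Counting error limits, at 3 counts for a count of 0, take no account of PCR copies. No pair of libraries was alike enough to be 1 library deposited again.

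The members, the other gene lists and the tests were chosen with earlier results of these data known. All members are named in every comparison. Of the other lists, *Igf2*, *Igfbp6* and *Igfbp7* are named, with some, but not all, of the genes with the smallest p of a list and tissue. For each member the gene most like it over the libraries was also looked up, and 1 such result is not reported here. Alternatives were DESeq2, upper-quartile scaling, DESeq2 size factors in edgeR, other low-count filters, the newer edgeR dispersion, the replicate number as a block, a GC correction, other sets of libraries and each library left out. After the data were seen, library size alone, a block within treatment and the omission of both shNT replicate 4 libraries were added.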

Additional observations from a re-analysis of the deposited data

Results flagged for a closer look

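A library was marked where its gap to the nearest of the other 3 of its group, as a share of the range of the group, exceeded Dixon's 95% critical value. Of 40 groups of 4 libraries (10 genes in 4 groups), 4 were marked, where chance gives about 2. *Igfals* was at 45.0 CPM in liver shNT replicate 4, below 204 to 227 CPM in the other 3 controls. *Igfbp1* was at 928 CPM in the same library, above 323 to 401 CPM. *Socs2* was at 182 CPM in kidney shNT replicate 4, above 76.6 to 90.6 CPM. *Igfbp3* was at 295 CPM in kidney shFOS replicate 3, above 183 to 197 CPM in the other 3 shFOS kidneys.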

How the results depend on the processing

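The number of the 10 genes called was 0 in kidney, in liver and for the interaction under all alternatives run, 8 between tissues in shFOS mice under all of them, and 8 or 9 in shNT mice, the ninth being *Ghr* with DESeq2 (1.27), without liver shNT replicate 4 (1.63) and without both shNT replicate 4 libraries (1.47). Calls over all genes were less stable. Against 0 with edgeR, DESeq2 called 2732 genes in kidney, 38 in liver and 341 for the interaction. The fit of all 16 libraries called 994 genes in kidney, leaving out kidney shFOS replicate 1 called 4126 in kidney and 1246 for the interaction, no filter on low counts called 3 in kidney, leaving out kidney shNT replicate 4 called 3 in kidney, and leaving out liver shFOS replicate 2 called 1 for the interaction. The liver genes at an unadjusted p under 0.05 numbered 886, against 1594 in the fit of all 16 libraries and 538 without liver shFOS replicate 1.

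Of 1050 fold changes of the 10 genes under alternatives, 1017 kept their direction and side of the threshold, 4 passed it (*Ghr* as above and *Socs2* of liver against kidney in shNT mice under library size alone, -1.63), 1 lost it (*Igfals* in the same setting, 0.88) and 28 turned direction, the turned ones without a call. When single libraries were left out, liver *Igf1r* ranged from -0.18 to 0.071 and liver *Igfbp2* from -0.16 to 0.18 on the log2 scale, kidney *Igfals* from -0.058 to 0.51 and kidney *Igfbp2* from -0.20 to 0.71. For the interaction the ranges were -0.045 to 0.54 for *Igfals*, -0.70 to 0.18 for *Igfbp2* and -0.26 to 0.12 for *Igfbp3*, and for liver against kidney in shFOS mice -0.064 to 0.42 for *Ghr* and -0.40 to 0.26 for *Socs2*. Interaction *Igfbp3* was 0.0027 under library size alone and 0.13 without both shNT replicate 4 libraries, and *Ghr* of liver against kidney in shFOS mice was -0.68 under library size alone. With the GC correction, kidney fold changes were 0.010 for *Igf1*, 0.27 for *Ghr*, 0.47 for *Igfals* and 0.58 for *Igfbp2*. The cause of these moves was not tested.

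The labels give the groups the same replicate numbers. The numbers were taken to pair kidney and liver libraries in shNT mice, though this was not settled and the main fits did not use it. Blocks changed no call of the 10 genes in any comparison. With the block within treatment, *Socs2* of liver against kidney in shNT mice was -0.55 (edgeR adjusted p = 0.0519, against 0.263 in the main fit). Between kidney and liver in either treatment, and between shNT and shFOS, not every library correlated best with its own number. With the replicate block, 0 of the 10 genes were called between shFOS and shNT and 8 between the tissues in either treatment, kidney *Igfbp2* turned to -0.0083, and *Socs2* of liver against kidney in shFOS mice turned to 0.084, to 0.049 with the GC correction and the block, and to 0.12 with the block within treatment, under which the *Igfbp2* interaction was 0.038.

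With 4 libraries a group, standard errors of the treatment fold changes were 0.131 to 0.664 on the log2 scale, and differences within about that size could not be told from the spread between libraries. Differences larger than their standard error, such as liver *Igfbp1* at -1.15 (SE 0.37, adjusted p = 0.714), were not called either. Liver *Igf1r* rests on 40 to 86 reads a library.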
